A study of Rattus norvegicus with 40 samples.

Results

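The cadherin and protocadherin genes were described in the brains of rats that had been exposed to blast, or sham-exposed, 12 months earlier. The members are the protein-coding genes that the hippocampus table names Cdh followed by a digit, or Pcdh, which gave 70 of its 23485 genes. All 70 were found by gene identifier in the tables of the cerebellum, amygdala and anterior cortex. Of these, 23 are named as cadherins, 11 are protocadherins that stand alone in the genome, and 36 belong to the clustered alpha, beta and gamma protocadherins. Total RNA of each of the 4 regions was sequenced from 5 libraries labelled blast-exposed and 5 labelled sham-exposed, 40 in all. The labels give the species, region and treatment, and no strain, sex, age or blast strength. They also do not say that libraries came from separate animals, so the p-values measure only the spread between these libraries, which may be technical. Library totals ran between 11268097 and 37128383 counts.

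Cadherins are calcium-dependent adhesion proteins whose extracellular repeats bind the same or related cadherins on a neighbouring cell. The classical ones, of type I and type II, hold on to the actin skeleton through catenins, and in the brain their combinations mark cell groups, layers and synapses. Protocadherins lack the catenin-binding tail. The clustered ones are chosen from rows of alternative promoters, so that single neurons carry different sets, and the delta protocadherins act in axon growth, sorting and synapse turnover.

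Libraries differed in ways the groups do not explain. In the anterior cortex the first principal component carried 41.0% of the variance, and blast library 8 and sham libraries 11, 13 and 15 (the number in the title) lay on one side of it with scores of 19.8 to 59.3, against -30.8 to -23.4 for the 6 others. These 4 libraries had counts for 16577 to 17845 genes, and the 6 others for 18744 to 20748. In the hippocampus, blast library 8, another blast library and sham library 11 held 8379.8, 7263 and 5053 summed CPM (counts scaled to a common library total) of choroid plexus markers, and the other 7 libraries 17.4 to 239. Among the other hippocampi sham library 14 scored 43.8 on the first component of that region (34.4% of the variance), where the rest of the 10 scored -41.9 to 19.2. Its summed CPM was 157 for the delta-1 members and 282 for the gamma members, where the other shams had 352 to 451 and 432 to 474, and it is part of all hippocampal sham means and SDs given here. Sham library 14 of the amygdala scored 35.1 on the first component there (18.4%), and the rest scored -13.9 to 13.8. In the cerebellum blast libraries 22 and 8 and sham library 33 held 2649.6, 2024 and 1190.2 of these summed CPM, and the other 7 libraries 46.7 to 130.1. The cerebellum label fitted its 6 markers, among them Gabra6 and Pcp2, which summed to 3881 to 4127 CPM in blast and 3866 to 4203 in sham cerebella and to at most 63.3 in any other library. The 6 anterior cortex markers summed to 316 to 511 CPM there and to at most 224 elsewhere. The other 2 lists did not separate their region. Hippocampal markers summed to 618 to 942 CPM in hippocampi and 506 to 653 in amygdalae. Amygdala markers summed to 171 to 235 CPM in amygdalae and 113 to 174 in cortices. In bulk tissue, fewer cells of a type and less RNA per cell cannot be told apart.

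In sham brain, most members differed between regions. Of the 70 members, 66 had enough counts for the test over the 20 sham libraries, and 49 of these differed over the 4 regions at an adjusted p under 0.05 in edgeR's quasi-likelihood F test, with p-values adjusted by Benjamini-Hochberg over all 15695 genes tested. The share over all genes tested was 74.5%, so the members' count was close to that of other genes. A gene past this threshold is said here to be called. The cerebellum was the highest or the lowest region for 38 of the 49. It was the highest for 20 and the lowest for 18, and the anterior cortex was the highest for 16. Between cerebellum and hippocampus, 17 members were called higher and 18 lower in the cerebellum, where 53.3% of all genes were called. Against the amygdala 22 were called higher and 21 lower in the cerebellum (58.5% of all genes called), and against the anterior cortex 12 higher and 27 lower (60.2% of all genes called). Pcdhb1, Cdh16, Cdh17 and Cdh26 were tested nowhere because of low counts, and Cdh16 had 2 counts in all 10 cerebellar libraries together.

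**Figure D1:**
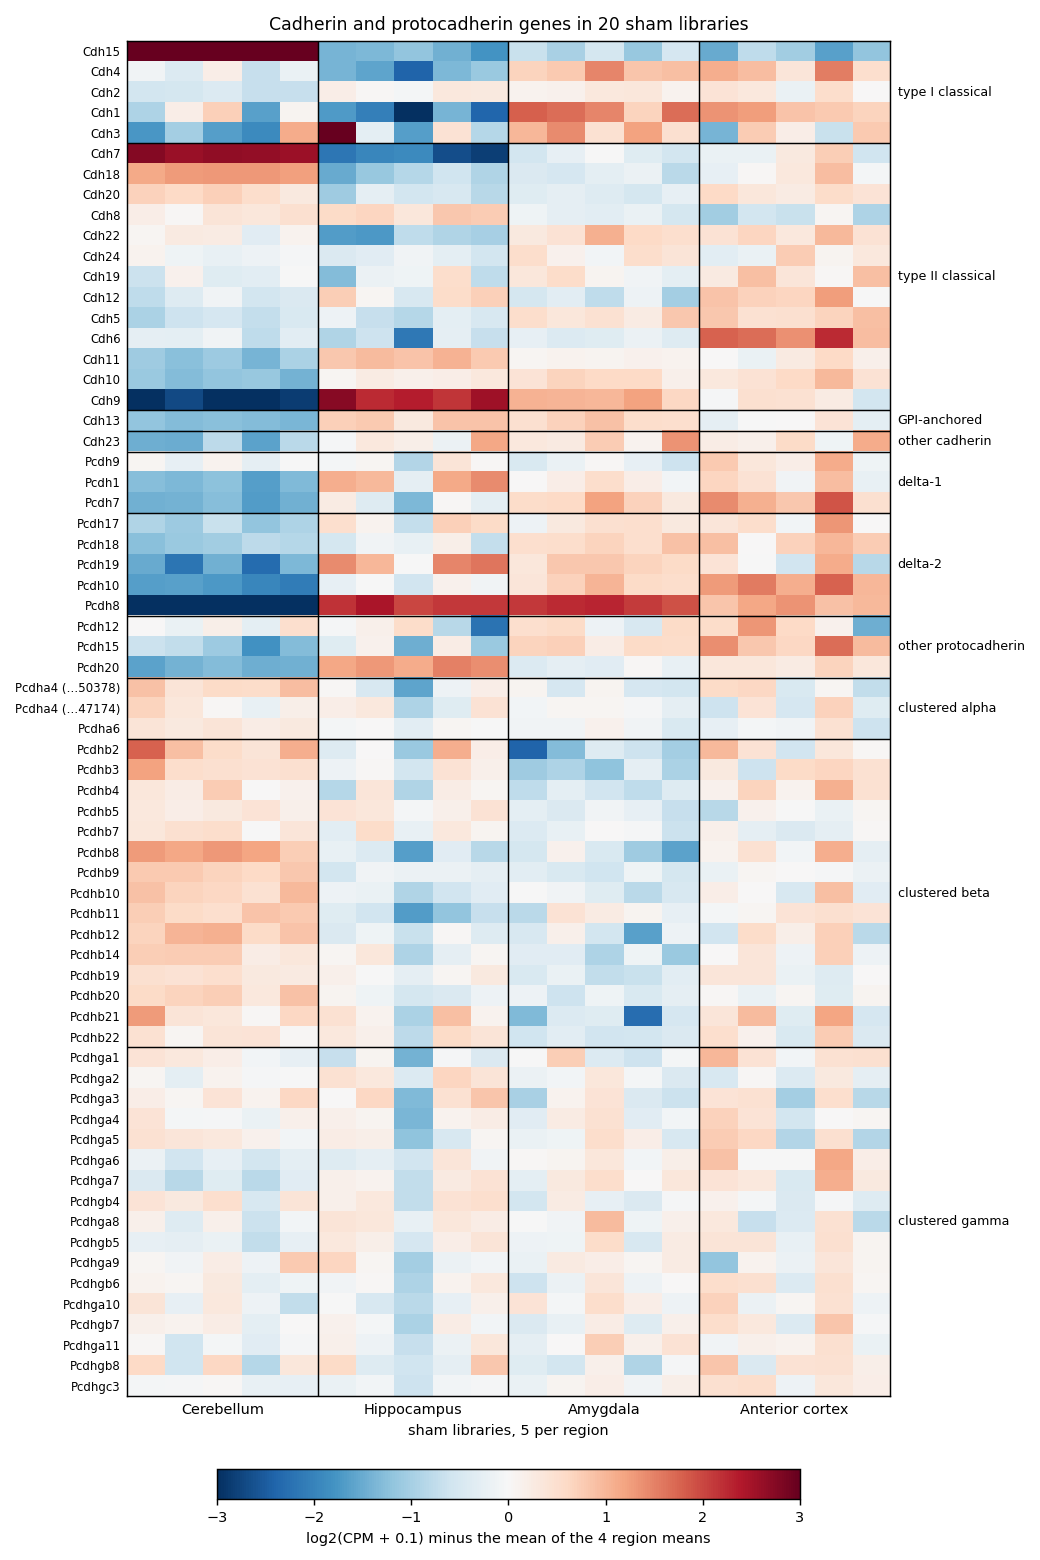
Each row is 1 of the 66 members tested in sham brain and each column 1 sham library, with cerebellum, hippocampus, amygdala and anterior cortex from left to right. The colour is log2(CPM + 0.1) minus the mean of the 4 region means, red above and blue below, and stops at 3 either way. The clustered genes follow their order along chromosome 18. Cdh15 and Cdh7 are red in the cerebellum, Pcdh8 and Cdh9 are blue there, and the beta block is red in the cerebellum.

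Among the 5 type I cadherins, 4 were called over the regions (74.5% of all genes). Cdh15, called M-cadherin for its role in muscle and also known from cerebellar granule cells in mouse, had 136, 131, 135, 130.1 and 117 CPM in the 5 sham cerebella. It had 3.43 to 5.22 CPM in sham hippocampus, 5.40 to 8.45 in sham amygdala and 3.82 to 7.03 in sham anterior cortex. Every cerebellar library lay far above every forebrain library. The log2 fold change was 4.86 ± 0.16 (SE) for cerebellum over hippocampus, 4.18 ± 0.16 for cerebellum over amygdala and 4.63 ± 0.16 for cerebellum over anterior cortex, with adjusted p of 4.91e-16, 3.43e-15 and 1.21e-15 (edgeR). By its F test it ranked 23 among all genes tested.

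Cdh2, N-cadherin of neuronal junctions and synapses, was lower in the cerebellum. It had 87.7 ± 7.53 CPM there, 145 ± 16.3 in hippocampus, 150.2 ± 12.5 in amygdala and 154 ± 30.5 in anterior cortex (mean ± SD over 5 sham libraries, as for all such values here). The log2 fold change of cerebellum over hippocampus was -0.73 ± 0.12 (edgeR adjusted p 2.24e-05), the amygdala and the cortex were also called above the cerebellum, and the forebrain regions were not called against each other. Cdh4, R-cadherin, and Cdh1, E-cadherin of epithelia, had their lowest level in the hippocampus.

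Cdh4 had 7.05, 6.22, 3.48, 7.26 and 8.65 CPM in the sham hippocampi, against 30.05 to 51.7 CPM in the sham amygdalae and 24.3 to 54.3 in the sham anterior cortices. Cdh1 had 1.10, 0.845, 0.369, 1.39 and 0.653 CPM in the sham hippocampi, against 6.12 to 13.5 CPM in the amygdalae and 6.10 to 9.81 in the cortices. For both genes the hippocampal libraries did not overlap those of the amygdala or cortex. On the log2 scale, hippocampus over amygdala was -2.50 ± 0.25 for Cdh4 and -3.66 ± 0.40 for Cdh1, with adjusted p of 1.91e-07 and 8.21e-07 (edgeR). The amygdala and the anterior cortex were not called apart for either gene. The summed markers of meninges and fibroblasts, of which 8 of 8 were found, were 34.8 to 557 CPM in sham hippocampus, 250.3 to 497 in sham amygdala and 115 to 180.0 in sham cortex, and their part in the level of Cdh1 was not tested.

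All 13 type II cadherins were called over the regions (74.5% of all genes), and different ones led in each region. Cdh7, Cdh18 and Cdh20 were highest in the cerebellum, Cdh8, Cdh9 and Cdh11 in the hippocampus, Cdh22 and Cdh24 in the amygdala, and Cdh5, Cdh6, Cdh10, Cdh12 and Cdh19 in the anterior cortex. These are orders of means, and several neighbours in them were not called apart.

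Cdh7 had 67.3, 59.5, 62.6, 61.3 and 59.2 CPM in the sham cerebella. It had 2.12, 2.47, 2.53, 1.47 and 1.31 CPM in the sham hippocampi, 6.73 to 9.85 in the amygdalae and 6.45 to 16.6 in the cortices. The cerebellum stood highest and the hippocampus lowest with no overlap, while amygdala and cortex overlapped. Cerebellum over hippocampus was 4.94 ± 0.23 and hippocampus over amygdala -1.96 ± 0.23 in log2 fold change (edgeR adjusted p 1.4e-13 and 1.53e-06). Cdh18 had 66.2 ± 3.06 CPM in the cerebellum, 14.1 ± 3.23 in hippocampus, 20.6 ± 3.33 in amygdala and 33.2 ± 11.8 in anterior cortex, and all 6 pairs of regions were called. Cdh20 had 40.2 ± 4.52 CPM in the cerebellum, 17.6 ± 3.79 in hippocampus, 21.1 ± 1.61 in amygdala and 36.5 ± 3.78 in anterior cortex. For Cdh20 the cerebellum and the anterior cortex were not called apart, and both were called above the hippocampus and the amygdala.

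Cdh9, a cadherin of the mossy fibre synapse between dentate granule and CA3 neurons in mouse, was lowest in the cerebellum. It had 0.506, 1.46, 0.811, 0.385 and 1.32 CPM in the sham cerebella, against 67.8, 47.9, 51.5, 44.5 and 58.8 CPM in the sham hippocampi. The sham amygdalae had 15.5 to 23.5 CPM and the sham cortices 6.79 to 13.97. The 4 regions formed 4 steps without overlap, and all 6 pairs were called. Log2 fold changes were -5.91 ± 0.28 for cerebellum over hippocampus, 1.43 ± 0.21 for hippocampus over amygdala and 0.83 ± 0.22 for amygdala over cortex (edgeR adjusted p 1.39e-13, 3.71e-05 and 0.0103). Without the 4 sham libraries of hippocampus and cortex that lay apart, the last of these was 0.95 with an adjusted p of 0.0574.

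Cdh6, a marker of layers and areas in developing cortex, had 4.88 to 7.70 CPM in sham cerebellum, 1.79 to 6.89 in sham hippocampus and 6.20 to 7.32 in sham amygdala. It had 28.6, 26.7, 21.5, 39.8 and 15.99 CPM in the sham anterior cortices. The cortex was called against each other region, with an amygdala over cortex log2 fold change of -1.99 ± 0.26 (edgeR adjusted p 1.93e-05), and the other regions were not called against each other. Cdh11, a cadherin of mesenchyme and of excitatory synapses, had 19.5 ± 2.30 CPM in the cerebellum, 80.0 ± 6.54 in hippocampus, 46.1 ± 0.600 in amygdala and 49.5 ± 10.4 in anterior cortex. Cdh8, a synaptic cadherin, had 41.9 ± 4.90 CPM in the cerebellum, 53.1 ± 6.61 in hippocampus, 27.9 ± 2.87 in amygdala and 22.9 ± 7.48 in cortex, and it was called higher in the hippocampus than in the amygdala and the cortex. The next gene marks vessels. Cdh5, VE-cadherin of endothelial junctions, had 11.04 ± 1.45 CPM in the cerebellum and 12.4 ± 2.41 in the hippocampus, which were not called apart, against 24.1 ± 3.83 in the amygdala and 27.4 ± 3.72 in the cortex. The summed endothelial markers other than cadherins, 6 of 8 found, were 147 to 184 CPM in sham cerebellum, 161 to 192 in sham hippocampus, 211 to 324 in sham amygdala and 290.2 to 479 in sham cortex, and their part in the level of Cdh5 was not tested.

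Of the other type II cadherins, Cdh22 was called lowest in the hippocampus. It had 37.001 to 57.3 CPM in the sham cerebella, 14.7, 14.3, 27.7, 24.99 and 23.5 in the sham hippocampi, 58.0 to 99.5 in the amygdalae and 59.1 to 93.3 in the cortices. The hippocampal libraries lay below all others, and the log2 fold change of hippocampus over amygdala was -1.77 ± 0.19 (edgeR adjusted p 7.39e-07). Cdh24 had 20.2 ± 1.80 CPM in the cerebellum, 16.9 ± 2.01 in hippocampus, 26.6 ± 4.78 in amygdala and 24.2 ± 7.60 in cortex, with the hippocampus called below the amygdala and the cortex but not apart from the cerebellum. Cdh10 had 11.7 ± 1.04 CPM in the cerebellum, 31.5 ± 2.23 in hippocampus, 38.8 ± 5.41 in amygdala and 40.7 ± 7.64 in cortex, and the cerebellum was called below each of the others. Cdh12 had 12.9 ± 2.18 CPM in the cerebellum, 22.9 ± 7.19 in hippocampus, 12.2 ± 2.87 in amygdala and 29.3 ± 8.69 in cortex, and cerebellum and amygdala were not called apart. Cdh19, known from glia of peripheral nerve, was called only for the cortex against the cerebellum and against the hippocampus, with 5.32 ± 1.14 CPM in the cerebellum, 5.21 ± 2.47 in the hippocampus and 9.02 ± 2.49 in the cortex.

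**Figure D2:**
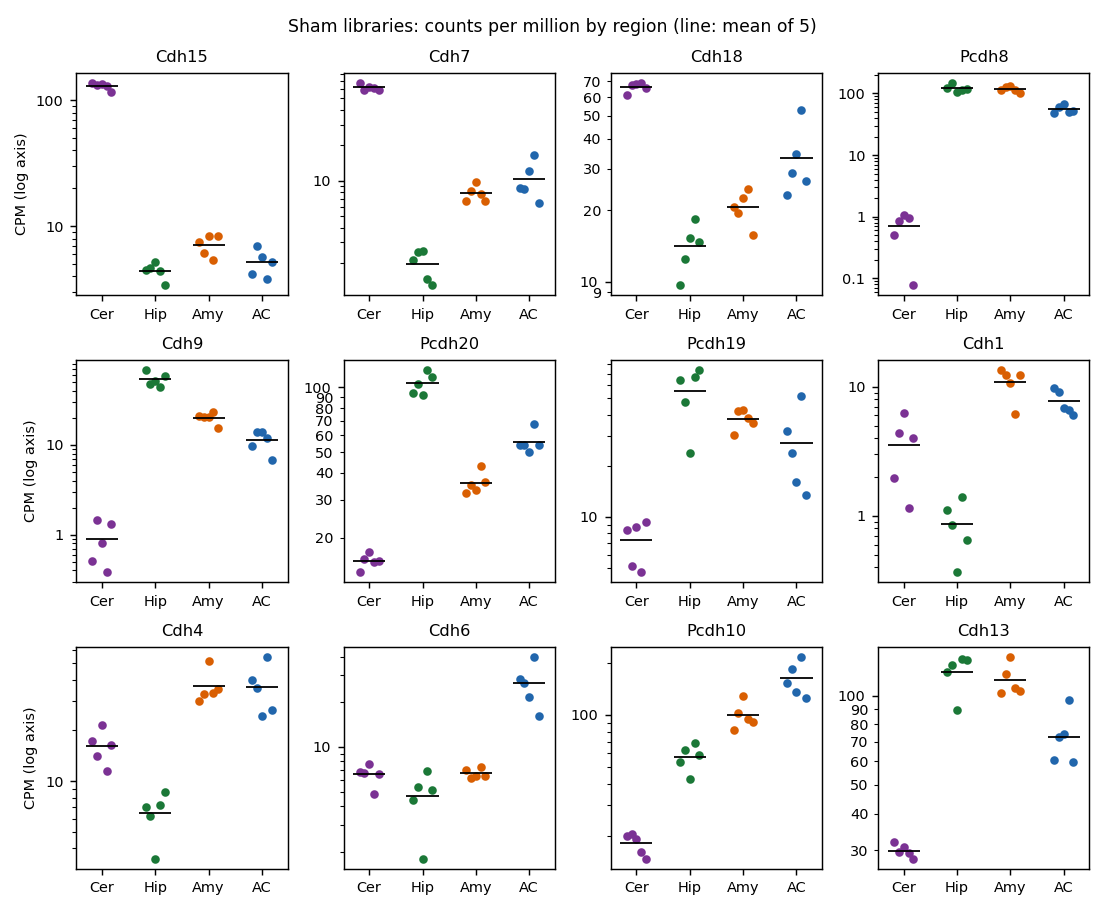
CPM on a log axis in each of the 20 sham libraries for 12 members, with cerebellum (Cer), hippocampus (Hip), amygdala (Amy) and anterior cortex (AC) from left to right. Points are libraries and lines are means of 5. Cdh15, Cdh7 and Cdh18 are highest in the cerebellum, Cdh9 and Pcdh20 in the hippocampus, and Cdh6 and Pcdh10 in the anterior cortex.

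Of the 11 protocadherins outside the clusters, 10 were called lower in sham cerebellum than in sham anterior cortex, 9 lower than in amygdala and 8 lower than in hippocampus, and 0 were called higher in the cerebellum in these comparisons. Over all genes, 30.4% were called lower in cerebellum than in anterior cortex, 30.8% lower than in amygdala and 27.9% lower than in hippocampus. The shares called higher in the cerebellum were 29.8%, 27.8% and 25.4% in the same order. All 5 delta-2 protocadherins, which guide axons and steer cell movement through the WAVE actin complex, were called lower in the cerebellum against every other region. Their levels summed per length to 13.6 ± 1.22 RPKM, counts per kilobase of gene length at a common library total, in the cerebellum, 79.7 ± 12.7 in hippocampus, 87.2 ± 9.95 in amygdala and 81.3 ± 17.3 in anterior cortex.

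Pcdh8, an activity-regulated protocadherin that promotes N-cadherin uptake at synapses in rat, had few counts in the cerebellum, 120 over its 10 libraries. It had 0.506, 0.849, 1.08, 0.964 and 0.0778 CPM in the sham cerebella, against 121, 146, 107, 116 and 117 CPM in the sham hippocampi. The sham amygdalae had 99.97 to 131 CPM and the sham cortices 47.7 to 68.7. Hippocampus and amygdala overlapped, and the cortex lay below both. The log2 fold change of cerebellum over hippocampus was -7.40 ± 0.24 and that of hippocampus over cortex 1.13 ± 0.17 (edgeR adjusted p 3.38e-16 and 1.84e-05).

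Pcdh10, a protocadherin of amygdala and corticostriatal circuits in mouse, differed in every pair of regions. It had 19.98, 20.4, 18.98, 16.1 and 14.7 CPM in the sham cerebella, against 42.5 to 69.2 CPM in the hippocampi, 81.8 to 128 in the amygdalae and 126 to 217 in the cortices. Only amygdala and cortex overlapped, and cerebellum over cortex had a log2 fold change of -3.17 ± 0.17 (edgeR adjusted p 1.28e-12). Pcdh19, whose human gene underlies an epilepsy mostly of girls, had 7.27 ± 2.15 CPM in the cerebellum, 55.2 ± 19.9 in hippocampus, 37.9 ± 4.88 in amygdala and 27.4 ± 15.4 in cortex. Its cerebellum over hippocampus log2 fold change was -2.93 ± 0.34, with an edgeR adjusted p of 2.39e-07. Pcdh17, which acts at synapses and on axons, had 21.6 ± 2.97 CPM in the cerebellum, 52.1 ± 17.2 in hippocampus, 51.6 ± 8.56 in amygdala and 60.0 ± 26.1 in cortex, and Pcdh18 had 2.65 ± 0.364, 4.55 ± 1.13, 8.37 ± 1.01 and 8.91 ± 2.09 CPM in the same order of regions.

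Pcdh20, a protocadherin outside the delta groups, had the largest hippocampus over amygdala fold of the members called higher there. It had 13.8 to 17.1 CPM in the sham cerebella, 94.0, 104, 92.2, 120.3 and 112 CPM in the sham hippocampi, 32.1 to 43.1 in the amygdalae and 50.3 to 67.5 in the cortices. The 4 regions did not overlap, and the hippocampus over amygdala log2 fold change was 1.54 ± 0.10 (edgeR adjusted p 9.65e-10). The 3 delta-1 members, which also lack clusters, had their lowest level in the cerebellum or the amygdala. Pcdh1 had 55.1 ± 6.06 CPM in the cerebellum, 277 ± 96.8 in hippocampus, 160.3 ± 26.9 in amygdala and 187 ± 61.4 in cortex. Pcdh7 had 10.997 ± 1.02 CPM in the cerebellum, 25.3 ± 9.11 in hippocampus, 48.9 ± 12.2 in amygdala and 70.1 ± 27.01 in cortex. Pcdh9 had 51.3 ± 6.28 CPM in the cerebellum, 52.4 ± 14.95 in hippocampus, 44.2 ± 7.68 in amygdala and 77.4 ± 26.7 in cortex, where it was called above each other region.

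Cdh13, a cadherin held by a lipid anchor that also binds adiponectin, had 29.99 ± 1.47 CPM in the cerebellum, 120.5 ± 17.9 in hippocampus, 113 ± 13.8 in amygdala and 72.8 ± 15.1 in cortex. Hippocampus and amygdala were the 1 pair of regions not called apart for it. Cdh23 and Pcdh15, which together form the tip link of inner ear hair cells, were both called lower in the cerebellum than in the amygdala and the cortex. Cdh23 had 3.40 ± 0.996 CPM in the cerebellum, 10.2 ± 4.28 in hippocampus, 12.2 ± 4.73 in amygdala and 10.8 ± 3.94 in cortex, and Pcdh15 had 4.09 ± 1.28, 6.62 ± 3.16, 12.7 ± 1.61 and 19.1 ± 6.01 CPM in the same order of regions. The tables list genes that overlap Cdh13, Cdh23, Cdh11, Cdh22 and Cdh8, and reads of the overlaps cannot be told apart here, since no source used here names the strand used in counting.

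The beta protocadherins were highest in the cerebellum. Of the 16, 15 were tested and 15 were called over the regions (74.5% of all genes). Of these, 14 had the highest mean in the cerebellum and 12 the lowest in the amygdala. Against the amygdala, 15 of 15 were called higher in the cerebellum, with a median log2 fold change of 1.07, where 27.8% of all genes were called higher. Against the hippocampus 8 of 15 were called higher in the cerebellum (25.4% of all genes), and against the anterior cortex 7 of 15 (29.8% of all genes), or 3 without sham cortex library 14 and 4 without library 11 or 33. Over all genes 4671 were called higher in the cerebellum than in the cortex, and 4316 to 4919 with any 1 sham library left out. No beta gene was called lower in the cerebellum in these 3 comparisons. The summed beta RPKM was 55.7 ± 3.03 in the cerebellum, 32.3 ± 5.02 in hippocampus, 25.1 ± 1.99 in amygdala and 34.01 ± 3.74 in cortex. These are 13.02%, 6.60%, 5.18% and 6.68% of the summed RPKM of all members.

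Beta genes typically hold their coding sequence in a single exon with a promoter of its own, and in mouse and human these promoters carry a conserved element with a CGCT core that CTCF binds. Windows of 6 promoters are printed to show that element in rat, because the regional pattern was shared along the row of beta genes. They are RefSeq promoter sequence of the assembly GRCr8, which need not be the build behind the counts, on the plus strand of chromosome 18, with GGTGGCGCT in capitals. Pcdhb9, Pcdhb19 and Pcdhb5 had the highest RPKM of the beta genes in sham cerebellum, and Pcdhb2, Pcdhb8 and Pcdhb3 the largest fold of cerebellum over amygdala.
Pcdhb9, chr18:29379240-29379284, plus strand: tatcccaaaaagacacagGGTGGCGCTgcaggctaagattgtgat
Pcdhb19, chr18:29478756-29478800, plus strand: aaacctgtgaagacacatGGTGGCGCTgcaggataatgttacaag
Pcdhb5, chr18:29302396-29302440, plus strand: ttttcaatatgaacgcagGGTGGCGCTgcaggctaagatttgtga
Pcdhb2, chr18:29279915-29279959, plus strand: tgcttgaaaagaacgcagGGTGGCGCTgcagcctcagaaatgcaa
Pcdhb8, chr18:29339250-29339294, plus strand: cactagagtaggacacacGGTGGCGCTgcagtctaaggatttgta
Pcdhb3, chr18:29285596-29285640, plus strand: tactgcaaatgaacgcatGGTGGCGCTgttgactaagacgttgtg

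The letters GGTGGCGCT were searched on both strands of the promoter windows, which run from 250 bases before to 50 bases after each gene's start. They were found in 13 of the 14 beta promoters listed (92.9%), in 0 of 13 gamma promoters and in 153 of 33469 rat promoters in all (0.457%). In the beta promoters they began 46 to 208 bases before the start, at a median of 68. Of the 23 matched members outside the clusters, 1 held the letters, and this was Cdh15, on the minus strand. The letters were chosen by looking at these promoters, so the shares are a description, and they say nothing of whether a factor binds there. Only these exact letters were searched, so a promoter without them may still hold another form of the element. In all, 51 of the 70 members had a promoter in this table.

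Pcdhb9 had the highest level per length of the beta genes in sham cerebellum, 10.3 ± 0.723 RPKM. It had 31.5, 31.4, 28.7, 27.2 and 31.6 CPM in the sham cerebella, against 12.4, 16.8, 16.03, 16.1 and 14.9 in the sham hippocampi, 11.9 to 16.5 in the amygdalae and 15.6 to 18.8 in the cortices. The cerebellum lay above all others, and the other regions overlapped. In log2 fold change the cerebellum was higher by 0.98 ± 0.11 over hippocampus, 1.13 ± 0.11 over amygdala and 0.80 ± 0.11 over anterior cortex (edgeR adjusted p 1.29e-07, 1.45e-08 and 2.02e-06). Pcdhb8 had 9.48, 8.74, 9.73, 8.93 and 6.53 CPM in the sham cerebella, against 1.16 to 3.31 in the hippocampi, 1.21 to 4.23 in the amygdalae and 3.18 to 8.31 in the cortices, where library 15 reached the cerebellar range. Pcdhb2 had 4.49, 2.43, 1.89, 1.67 and 2.80 CPM in the sham cerebella, against 0.156 to 0.931 in the amygdalae. Its fold of cerebellum over amygdala was the largest among the beta genes, 2.18 ± 0.46 on the log2 scale (edgeR adjusted p 0.00039). That fold rests on a level near the floor, with 2, 6, 12, 11 and 9 counts of Pcdhb2 in the sham amygdalae. Pcdhb5 had 12.5 ± 0.911 CPM in the cerebellum and 12.5 ± 1.77 in the hippocampus, which were not called apart, and Pcdhb4 was the 1 beta gene highest in the anterior cortex, at 6.83 ± 2.01 CPM.

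The gamma protocadherins, which lie next to the beta genes on the same chromosome, had another order. Of 17 tested, 3 were called over the regions (74.5% of all genes). Against any other region 0 of the 17 were called higher in the cerebellum (25.4% to 29.8% of all genes). Their median log2 fold change of cerebellum over amygdala was 0.05. Pcdhga7 was called lower in the cerebellum against each of the others, with 10.3 ± 1.71 CPM there, 16.04 ± 4.24 in hippocampus, 17.3 ± 3.73 in amygdala and 19.97 ± 7.50 in cortex. Pcdhga4, Pcdhga9 and the Pcdha4 gene with the identifier ENSRNOG00000047174 had the smallest regional spread of the members at 1 RPKM or more in every region. Pcdhga4 had 12.4 ± 2.13 CPM in the cerebellum, 11.3 ± 3.85 in hippocampus, 11.97 ± 3.10 in amygdala and 13.4 ± 4.16 in cortex. Of the 3 alpha genes, 2 were called higher in the cerebellum than in the hippocampus (25.4% of all genes) and the amygdala (27.8%). Pcdha6 had 157 ± 7.38 CPM in the cerebellum, 121 ± 11.5 in hippocampus, 116 ± 16.4 in amygdala and 120.3 ± 33.6 in cortex. The clustered genes are close copies of each other, and the models of Pcdha6 and Pcdhgc3 hold exons that their cluster shares, so their counts are uncertain.

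**Figure D3:**
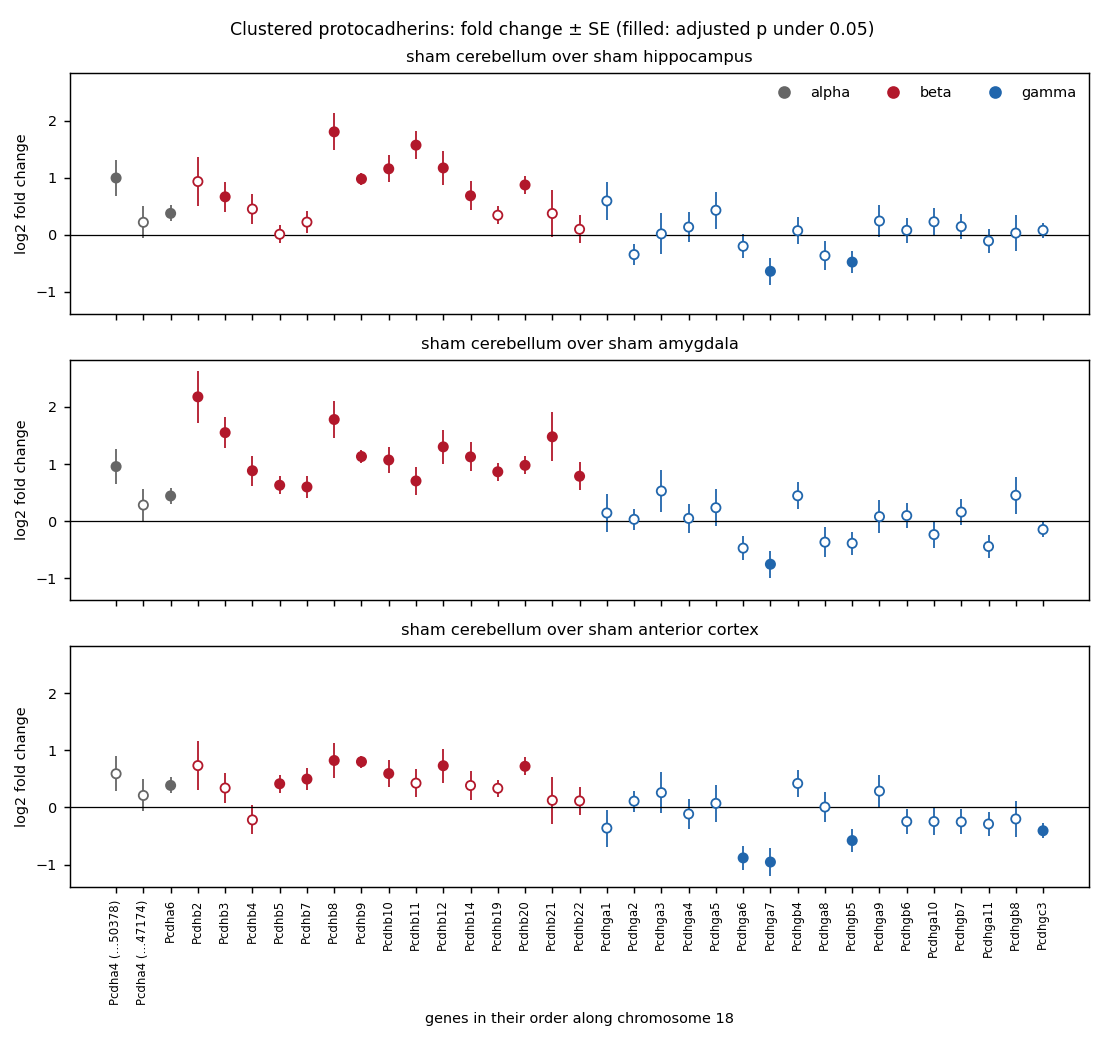
Log2 fold change of sham cerebellum over sham hippocampus, amygdala and anterior cortex (top to bottom) for the 35 clustered protocadherins tested, in their order along chromosome 18. Bars are SE and filled points have an adjusted p under 0.05 in edgeR. All 15 beta genes are filled and above 0 against the amygdala, while the gamma genes lie around 0 with a median of 0.05.

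Levels of different genes can be set side by side only per length. Pcdhgc3 led in 3 of the 4 regions with 55.4 ± 3.87 RPKM in sham cerebellum, 55.6 ± 5.44 in amygdala and 62.3 ± 9.60 in anterior cortex, and it had 48.0 ± 7.25 in hippocampus. Pcdh1 led in the hippocampus with 59.6 ± 20.4 RPKM, which overlaps Pcdhgc3 within the SD. The next in the cerebellum was Cdh15 with 51.2 ± 2.58 RPKM, in the amygdala Pcdh8 with 36.2 ± 3.86 and in the anterior cortex Pcdh10 with 45.9 ± 10.2. Cdh2 was among the 5 highest in all regions, at 21.998 ± 1.58 RPKM in the cerebellum, 33.3 ± 3.71 in hippocampus, 34.2 ± 3.24 in amygdala and 32.7 ± 5.84 in cortex. The deposited FPKM of Pcdhgc3, the authors' own value per length, averaged 104 in sham cerebellum, 90.5 in hippocampus, 104 in 4 libraries of amygdala and 117 in cortex, which is 1.89 times its RPKM in the median over libraries. On the deposited FPKM the order in the hippocampus turns, with 90.5 for Pcdhgc3 and 59.6 for Pcdh1. The deposited FPKM of Pcdha6 was 5.13 times its RPKM and averaged 32.4 in sham cerebellum, next after Pcdhgc3 and Cdh15 on that scale. The class sums and shares of RPKM given here do not use those values.

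Between the forebrain regions fewer members were called. Of the 66 tested, 9 were higher and 13 lower in sham hippocampus than in sham amygdala, where 9.14% and 11.5% of all genes were called higher and lower. Against the anterior cortex, 9 were higher and 22 lower in the hippocampus (22% and 21.7% of all genes, 43.6% in all). In the amygdala, 4 were higher and 15 lower than in the anterior cortex (10.3% and 11.4% of all genes), and 8 of the 15 were beta genes. Without the 4 sham libraries of hippocampus and cortex that lay apart, 14 members were called lower for hippocampus against cortex and 5 for amygdala against cortex, of which 1 was a beta gene. Without cortex library 13 alone, amygdala against cortex gave 9 members lower, of which 2 were beta genes. The beta count was 3 to 5 when any 1 of the 5 sham amygdalae or cortex library 11 or 15 was left out. Over all genes 1792 were called lower in the amygdala than in the cortex, and 1252 to 2387 with any 1 sham library left out. Counts over all genes without the 4 libraries are not given here, so these changes are not read as particular to members or beta genes.

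Genes that work with the members also differed between the sham regions. Of 15 genes known to act on clustered protocadherin choice, among them Ctcf and the cohesin subunits, 14 were called higher in the cerebellum than in the hippocampus (25.4% of all genes), 15 than in the amygdala (27.8%) and 11 than in the anterior cortex (29.8%). Ctcf had 107 ± 6.90 CPM in the cerebellum, 69.8 ± 2.44 in hippocampus, 59.7 ± 2.29 in amygdala and 68.5 ± 4.01 in cortex. Stag1, a cohesin subunit, had 63.8 ± 4.31 CPM in the cerebellum, 26.997 ± 1.42 in hippocampus, 28.3 ± 1.44 in amygdala and 37.4 ± 6.73 in cortex. These values stand beside the higher beta levels of the cerebellum, and a link between them was not tested.

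Of 15 genes through which protocadherins signal, 0 were called higher in the cerebellum, and 11, 10 and 11 were called lower than in hippocampus, amygdala and anterior cortex, where 27.9%, 30.8% and 30.4% of all genes were. Ptk2b, the kinase PYK2 that clustered protocadherins inhibit, had 7.16 ± 1.60 CPM in the cerebellum, 888 ± 237 in hippocampus, 522 ± 198 in amygdala and 445 ± 179 in cortex. Among 15 catenins and plaque genes the direction was mixed, with 4 called higher and 5 lower in the cerebellum than in the amygdala, both near the 27.8% and 30.8% of all genes. Beta-catenin, Ctnnb1, had 176 ± 15.5 CPM in the cerebellum, 284 ± 26.9 in hippocampus, 317 ± 21.4 in amygdala and 380.4 ± 84.3 in cortex. Plakoglobin, Jup, its close relative, went the other way with 216 ± 10.5 CPM in the cerebellum, 45.6 ± 4.50 in hippocampus, 65.8 ± 4.80 in amygdala and 87.5 ± 8.03 in cortex. Of 17 genes listed as atypical cadherins, 5 were called higher and 8 lower in the cerebellum against each other region, where 25.4% to 29.8% of all genes were called higher and 27.9% to 30.8% lower. The list holds a pair of genes that are no atypical cadherins, the Golgi kinase Fjx1, called lower in the cerebellum, and the receptor kinase Ret, called higher there. Fat2, a giant cadherin known from cerebellar granule cells, had 1141 ± 165 CPM in the cerebellum, 0.149 ± 0.0930 in hippocampus, 1.51 ± 0.604 in amygdala and 0.927 ± 0.612 in cortex. Of 9 proteases that cleave cadherins, 2 were called higher and 1 lower in the cerebellum than in the amygdala, no more than the 27.8% and 30.8% of all genes. Of 8 desmosome genes listed, 3 were tested, and the plaque protein desmoplakin, Dsp, had 1.99 ± 0.439 CPM in the cerebellum, 36.6 ± 13.3 in hippocampus, 5.06 ± 0.407 in amygdala and 6.75 ± 2.99 in cortex.

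Blast was then compared with sham in each region, which asks what remained of the exposure 12 months later. No member was called in any region. In the cerebellum 0 of 65 members tested were called (0% of 14769 genes), in the hippocampus 0 of 66 (0% of 15059), in the amygdala 0 of 65 (0% of 15280) and in the anterior cortex 0 of 66 (0% of 14918), by edgeR's quasi-likelihood test with p-values adjusted over all genes of the region. DESeq2 and limma voom also called 0 members. At an unadjusted p under 0.05 the members were 4 for cerebellum, 0 for hippocampus, 4 for amygdala and 2 for anterior cortex, where all genes numbered 683, 284, 1325 and 644. The median SE of the members on the log2 scale was 0.13 for cerebellum, 0.205 for hippocampus, 0.158 for amygdala and 0.244 for anterior cortex. Blast and sham libraries overlapped for every member but 1 in the 4 regions, and all genes without overlap were 0.42% higher and 0.311% lower in blast in the cerebellum, 0.126% and 0.146% in hippocampus, 0.785% and 0.733% in amygdala, and 0.375% and 0.268% in anterior cortex. Of the 17 gamma protocadherins, 4 had a higher fitted level in blast in cerebellum (51.1% of all genes), 12 in hippocampus (49%), 1 in amygdala (49.7%) and 4 in anterior cortex (50%), and 0 of them were called. In the hippocampus, amygdala and anterior cortex, some libraries that lay apart were also at an end of the range of summed gamma CPM. The summed gamma CPM was 431 to 489 in blast hippocampi, against 282 in sham library 14 and 432 to 474 in the 4 others. In the amygdala it was 391 to 447 in blast, against 549 in sham library 14 and 387 to 490 in the other shams. In the anterior cortex it was 548 in blast library 8 and 360.5 to 430.4 in the other blast libraries, against 566 to 597 in sham libraries 11, 13 and 15 and 369 and 451 in the other shams. The part of these libraries in the gamma counts was not tested. Folds lay within 0.5 of 0 on the log2 scale for 62 of 65 members in cerebellum, 63 of 66 in hippocampus, 65 of 65 in amygdala and 61 of 66 in anterior cortex.

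**Figure D4:**
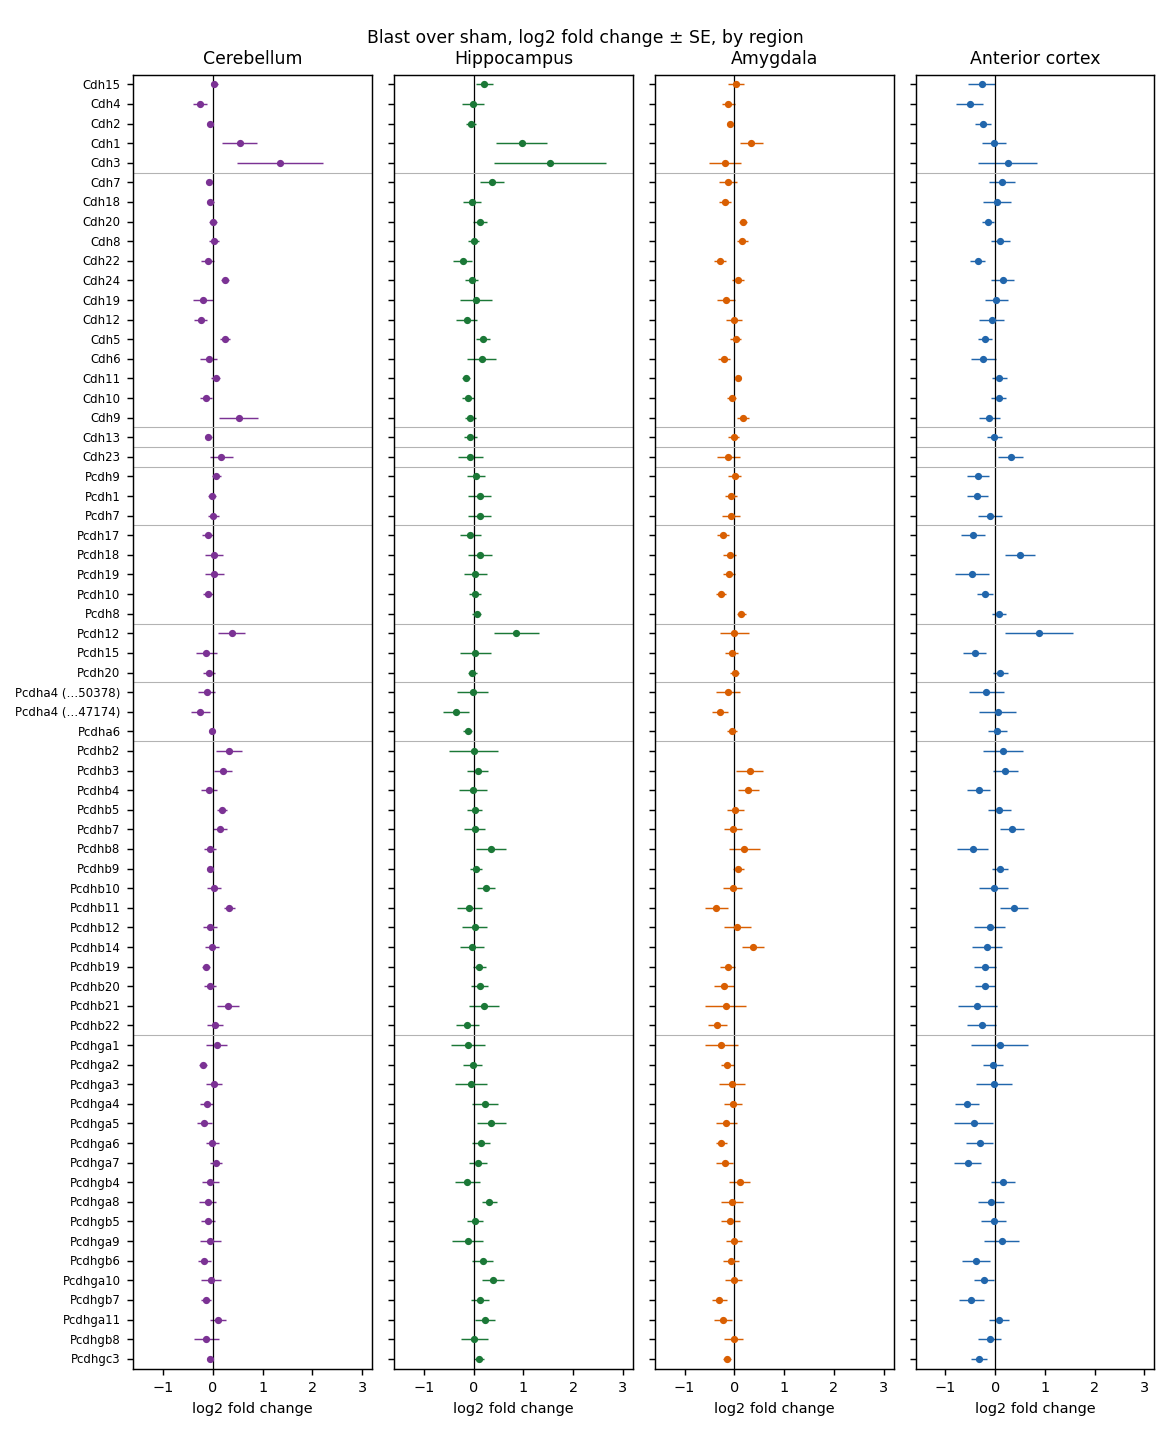
Log2 fold change of blast over sham with its SE for the 66 members, by region, ordered by class as in the heat map of sham libraries. Pcdh8 in the cerebellum and Pcdhb2 in the amygdala were not tested and are blank. Most points lie within 0.5 of 0, and the widest bars belong to Cdh3 in cerebellum and hippocampus.

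In the cerebellum the smallest p belonged to Cdh24, a type II cadherin. It had 28.1, 27.5, 26.2, 25.3 and 24.2 CPM in blast cerebella, against 25.1, 21.5, 19.9, 21.3 and 22.7 CPM in sham cerebella. The lowest blast library lay below 1 sham library, and the log2 fold change was 0.25 ± 0.07 with an adjusted p of 0.96 (edgeR). Pcdhb11 had 8.94, 11.3, 10.8, 9.03 and 9.98 CPM in blast cerebella, against 8.11, 7.34, 6.88, 8.93 and 8.45 CPM in sham cerebella. It was the 1 member whose groups did not overlap, by a narrow gap, and 0.42% of all genes tested lay higher without overlap in this comparison. Its log2 fold change was 0.33 ± 0.12 with an adjusted p of 0.96 (edgeR), and in the amygdala it was -0.37 ± 0.23.

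Cdh5 had 13.7 to 15.1 CPM in blast cerebella and 9.69 to 13.7 in sham cerebella, a log2 fold change of 0.24 ± 0.10. The summed endothelial markers were 155 to 177 CPM in blast and 147 to 184 in sham cerebella, so those ranges overlapped. The members lower in blast cerebella with the smallest p were Pcdhga2 at -0.19 ± 0.09, Cdh4 at -0.26 ± 0.14 and Cdh12, a type II cadherin, at -0.24 ± 0.13 (log2 fold change ± SE). All 3 had an adjusted p of 0.999 in edgeR, and without sham library 14 Cdh4 was at -0.14 and Cdh12 at -0.15.

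In the hippocampus the smallest adjusted p of a member was 0.998 in edgeR. The smallest unadjusted p belonged to Pcdhga8, which had 12.3, 15.3, 10.2, 13.2 and 11.9 CPM in blast hippocampi, against 11.3, 10.96, 7.42, 10.998 and 10.005 CPM in sham hippocampi. The groups overlapped, and the log2 fold change was 0.31 ± 0.15. Cdh11 had 76.3, 75.1, 69.7, 63.7 and 72.8 CPM in blast hippocampi, against 74.8, 83.1, 77.6, 89.0 and 73.1 CPM in sham hippocampi. The groups overlapped in part, and its log2 fold change was -0.15 ± 0.08. Pcdh12, an endothelial protocadherin, had 1.79 ± 0.591 CPM in blast and 0.957 ± 0.594 CPM in sham hippocampi, at a level too low for a firm comparison. Pcdha6 at -0.12 ± 0.09 and the Pcdha4 gene ENSRNOG00000047174 at -0.36 ± 0.26 completed the members lower in blast hippocampi with the smallest p (log2 fold change ± SE), and the Pcdha4 gene was at -0.23 without sham library 33.

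In the amygdala Pcdh10 had the smallest p among the members. It had 85.7, 78.7, 75.6, 83.7 and 89.6 CPM in blast amygdalae, against 81.7, 103, 128, 94.8 and 90.4 CPM in sham amygdalae. The groups overlapped at 1 sham library, and sham library 14 stood highest. Blast over sham was -0.27 ± 0.10 on the log2 scale with an adjusted p of 0.517 (edgeR), and it was -0.16 without sham library 14. Cdh22, a type II cadherin, had 64.3, 49.5, 57.0, 61.9 and 62.1 CPM in blast amygdalae, against 57.9, 63.3, 99.6, 71.9 and 66.8 CPM in sham amygdalae. Its log2 fold change was -0.29 ± 0.13, and -0.14 without sham library 14, which was again the highest. Cdh20 at 0.17 ± 0.08 and Pcdhga6 at -0.26 ± 0.12 also had an unadjusted p under 0.05, with an adjusted p of 0.566 and 0.559 (edgeR). Pcdhb14 at 0.37 ± 0.22 and Pcdh8 at 0.14 ± 0.09 followed among those with a higher fitted level, and Pcdh8 was at 0.082 without blast library 88.

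In the anterior cortex 41 of 66 members had a lower fitted level in blast and 25 a higher one, with a median log2 fold change of -0.09, where 50% of all genes were higher. The libraries that lay apart were 1 blast and 3 sham, and the part of this imbalance in that direction was not tested. Cdh22 had 44.4, 51.9, 59.8, 50.7 and 56.0 CPM in blast cortices, against 61.5, 70.7, 55.4, 88.8 and 58.8 CPM in sham cortices. The groups overlapped, and the log2 fold change was -0.35 ± 0.14 with an adjusted p of 0.799 (edgeR), and -0.23 without sham library 15. Pcdhga4 had 6.36 to 10.5 CPM in blast cortices and 7.57 to 18.3 in sham cortices, a log2 fold change of -0.57 ± 0.24. Pcdhgc3 was at -0.32 ± 0.15, Pcdh18 at 0.50 ± 0.30 and Pcdhb7 at 0.35 ± 0.24 on that scale, and none of the 3 had an unadjusted p under 0.05. Without blast library 8, Pcdh18 was at 0.23 and Pcdhb7 at 0.14. Pcdhb11 had 6.05, 4.86, 5.997, 11.9 and 4.52 CPM in blast cortices, against 4.10, 4.39, 5.59, 5.91 and 5.52 CPM in sham cortices. Blast library 8 stood far above the rest. For Pcdhb11 the log2 fold change was 0.38 ± 0.28, and it was 0.07 without that library and -0.054 without the 4 libraries that lay apart.

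Over the 4 regions together, with the number in the titles as a random block in limma voom, 0 of 66 members were called, where 0.00611% of all genes were, or 7 genes higher and 18 lower without the libraries numbered 14. Cdh22 came first among the members with a mean log2 fold change of blast over sham of -0.23 ± 0.08 and an adjusted p of 0.46 (limma voom). Without the libraries numbered 14 the mean of Cdh22 was -0.17. By region its log2 fold change was -0.10 ± 0.12 in cerebellum, -0.21 ± 0.19 in hippocampus, -0.29 ± 0.13 in amygdala and -0.35 ± 0.14 in anterior cortex, and blast and sham libraries overlapped in each. In the cerebellum it had 41.0 to 61.7 CPM in blast and 40.8 to 63.0 in sham, and in the hippocampus 14.8 to 20.2 in blast and 14.2 to 27.6 in sham. Cdh1 followed with a mean of 0.44 ± 0.21, or 0.30 without the libraries numbered 22. Its log2 fold change was above 0 in 3 regions and -0.03 in the anterior cortex. Cdh2 was below 0 in 4 of 4 regions with a mean of -0.11 ± 0.05 and an adjusted p of 0.603 (limma voom), and -0.072 without the libraries numbered 15. Pcdhb3 was above 0 in 4 of 4 regions with a mean of 0.22 ± 0.12 and an adjusted p of 0.613 (limma voom). In the edgeR F test that asks whether the blast effect differs between regions, no member was called (0% of 16378 genes), and 0 of 66 had an unadjusted p under 0.05 there, where 779 of all genes did. Without the libraries numbered 14 Pcdhgc3 had an unadjusted p of 0.00444 in that test, and without those numbered 11 Pcdhb11 had 0.0361 (edgeR).

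The blast folds with the largest errors were those of Cdh3, P-cadherin of epithelia, a gene singled out here after its values were seen. It had 1.48, 1.14, 27.5, 34.1 and 2.89 CPM in blast hippocampi, against 18.5, 1.38, 0.474, 2.33 and 0.888 CPM in sham hippocampi. The 3 highest libraries, 2 blast and 1 sham, were the 3 with high choroid plexus markers. In the cerebellum it had 9.84, 0.592, 0.322, 4.48 and 0.919 CPM in blast libraries, against 0.481, 0.868, 0.512, 0.425 and 4.18 CPM in sham libraries, and the 3 above 4 CPM were again those with high choroid plexus markers. Blast over sham gave a log2 fold change of 1.54 ± 1.13 in the hippocampus and 1.35 ± 0.87 in the cerebellum, with adjusted p of 0.998 and 0.999 (edgeR). In the anterior cortex the summed choroid plexus markers were 8.22 to 19.2 CPM in blast and 6.54 to 31.6 in sham, and Cdh3 had 1.39, 1.18, 1.24, 6.19 and 0.995 CPM in blast cortices, against 0.572, 2.81, 1.84, 0.9999 and 2.80 CPM in sham cortices. Here the library with the most Cdh3, blast 8, had the 8.22 CPM of markers. Sham library 33, with the most markers, had 2.80 CPM of Cdh3, and blast library 4, at 19.2 CPM of markers, had 1.18. For the amygdala, Cdh3 had 1.47 to 5.44 CPM in blast and 2.41 to 4.77 in sham libraries, a log2 fold change of -0.18. The part of choroid plexus tissue in the Cdh3 values was not tested. Of the choroid plexus markers 10 of 10 were found in the hippocampus and 9 of 10 in each other region, and 0 were without counts.

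**Figure D5:**
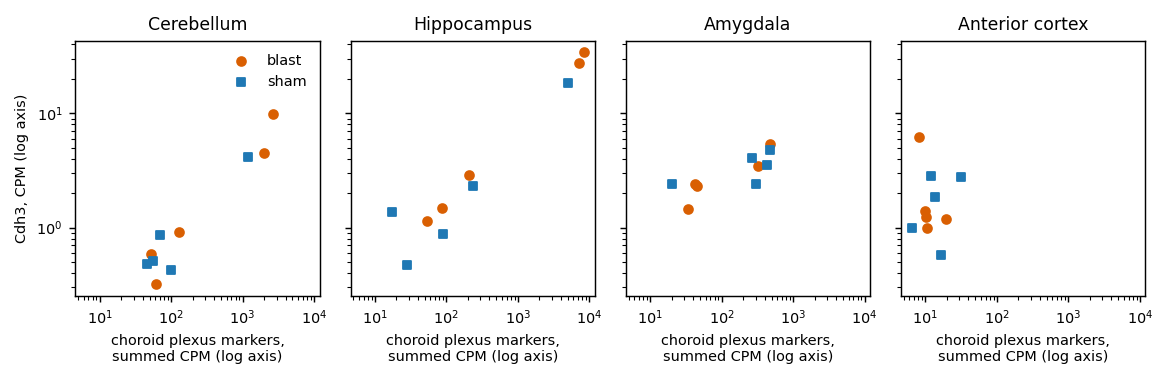
CPM of Cdh3 against the summed CPM of the choroid plexus markers in each library, both on log axes, for the 4 regions, with blast as circles and sham as squares. The 3 hippocampal libraries with the most markers hold 34.1, 27.5 and 18.5 CPM of Cdh3, and the 3 such cerebellar libraries 9.84, 4.48 and 4.18.

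Cdh1 had 8.21, 5.26, 4.27, 6.02 and 4.53 CPM in blast cerebella, against 2.13, 4.80, 6.80, 1.28 and 4.44 CPM in sham cerebella. The 2 lowest libraries, sham 11 and 15, were also the 2 lowest in summed markers of meninges and fibroblasts, 38.4 and 41.9 CPM, where the other cerebellar libraries had 98.6 to 327. In the hippocampus Cdh1 had 4.12, 0.998, 0.677, 1.44 and 1.12 CPM in blast hippocampi, against 1.10, 0.838, 0.368, 1.38 and 0.645 CPM in sham hippocampi. Blast library 22 stood alone at the top, and the log2 fold change of 0.96 was 0.30 without it. That library had 239 summed CPM of the meningeal markers, and 3 libraries with lower Cdh1 had more of them, namely 2 blast libraries with 571 and 825 and sham 11 with 557. The part of meningeal tissue in Cdh1 was not tested.

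No gene of the 6 lists of partner genes was called for blast in any region or over the regions. The smallest adjusted p in a region was 0.459 in edgeR, for vinculin, Vcl, an actin linker of adhesion sites, with a log2 fold change of -0.26 ± 0.08 in the amygdala. Over the regions the smallest was 0.391 in limma voom, for Taok2, a kinase that acts downstream of protocadherins, at -0.12 ± 0.04. Among the genes acting on clustered protocadherin choice, Smc1a, a cohesin subunit, had a mean log2 fold change of -0.13 ± 0.05 with an adjusted p of 0.45 (limma voom). Of these 15 genes 0 were called in the mean over regions (0.00611% of all genes).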

How the data were processed

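The 40 libraries of 4 rat brain regions, 5 blast and 5 sham each, came as a table for each region. Per the file headers the authors deposited read counts and FPKM per gene. A normalized signal, which the values show to be counts over 1 size factor a library, and the authors' deposited log2 fold changes and p-values were not used for results. CASAVA is named in the submitters' processing notes, while aligner, counter and genome build were not given in the sources used here. Members and lists were chosen with earlier results of these data known.

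From the counts, edgeR 4.0.16 quasi-likelihood tests (filterByExpr, TMM, Benjamini-Hochberg over all genes, two-sided, called under 0.05) compared blast with sham within each region, and the sham regions in 1 model of 20 libraries, taken as independent, over genes in all 4 tables. limma 3.58.1 voom gave the mean blast effect, and DESeq2 1.42.0 was an alternative (R 4.3.3). CPM used TMM totals within a region for blast values and over the 20 sham libraries for region values, and RPKM used plain totals and the tables' gene lengths. The tests were checked on simulated data. Members were named if among the 3 with the smallest p in each direction of a blast comparison, the 5 highest in RPKM in a region, the 3 largest called folds of a sham contrast, the 5 first in the mean effect, the 3 first in the interaction or the 3 with the smallest spread over regions; others serve to complete their class. The pseudogene Pcdhb6 was left out, and 6 members have other names in the cerebellum table. A sham column of the amygdala is numbered 13 where the title has 12, so that library carries no number here, and its 2 columns of FPKM and signal were not used.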

Additional observations from a re-analysis of the deposited data

Results flagged for a closer look

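In 5 of 108 groups of 5 libraries, 1 library lay far from the other 4, with a gap to its nearest neighbour beyond Dixon's 95% critical value, and chance alone gives this in about 1 in 20 groups. Cdh1 had 4.12 CPM in blast hippocampus library 22, where the nearest was 1.44. Pcdhb7 and Pcdhb11 had 10.2 and 11.9 CPM in blast anterior cortex library 8, where the nearest were 6.35 and 6.05. Pcdh20 had 67.5 CPM in sham anterior cortex library 15, with the nearest at 53.8. Cdh4 had 51.7 CPM in sham amygdala library 14, with the nearest at 35.1.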

How the results depend on the processing

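The count of 0 members called for blast held in each region, over regions and for the interaction under every alternative run. With 1 library left out it stayed between 0 and 0. Without the 4 sham libraries that lay apart (hippocampus 11 and anterior cortex 11, 13 and 15, chosen after seeing the data), which leaves 2 cortex libraries, members called lower were 14 for hippocampus against cortex and 5 for amygdala against cortex. Counts over all genes for that setting are not given here. With the deposited FPKM, Pcdhgc3 had 104 in cerebellum, 90.5 in hippocampus, 104 in amygdala (4 libraries) and 117 in cortex, 1.89 times its RPKM in the median over libraries, and the cause was not tested. The blast log2 fold change of Pcdhb11 in anterior cortex was -0.054 without the 4 cortex libraries that lay apart, and the cause was not tested. Leaving out 1 library gave 9 to 18 members lower for amygdala against cortex and 3 to 4 higher, 46 to 52 over the 4 regions, 14 to 18 higher and 15 to 21 lower for cerebellum against hippocampus, 21 to 23 and 19 to 22 against amygdala, and 8 to 14 and 23 to 27 against cortex. Hippocampus against amygdala gave 7 to 13 and 10 to 14, and hippocampus against cortex 7 to 10 and 17 to 23. Over all genes these omissions gave 11357 to 12227 called over the 4 regions. Amygdala against cortex gave 1047 to 2600 higher and 1252 to 2387 lower. Cerebellum against hippocampus gave 3712 to 4281 and 3957 to 4619, and against amygdala 4081 to 4664 and 4294 to 5027. Against cortex it gave 4316 to 4919 and 4306 to 4945. Hippocampus gave 1161 to 1683 and 1475 to 2037 against amygdala, and 2846 to 3878 and 3060 to 3625 against cortex. No paired analysis was possible because blast and sham libraries share no number. Between sham regions, same-numbered libraries had correlations of their deviations of -0.17 to 0.476, over 0.1 in 10 of 27 pairs (median 0.0409, other numbers -0.0147), so the numbers were not taken to pair the samples in the main sham contrasts. The mean blast effect over regions did use them, as a random block. In 22 of 54 matches of a library with the 5 of another region its own number correlated best, where chance gives about 1 in 5, a hint of pairing from the data and not the design. With the replicate block 47 members were called over the regions, and for amygdala against cortex 4 higher and 11 lower, of which 4 beta genes. Counts over all genes with the block are not given here. DESeq2 was not run for the test over 4 regions. The median SE of 0.13 to 0.244 on the log2 scale limits what a blast comparison could show.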

Other observations

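The cerebellum table names 5 further protein-coding genes as protocadherins, which the hippocampus table lists under other names, so they are no members. In sham brain Pcdhb15 had 3.13 ± 0.593 RPKM in cerebellum, 1.57 ± 0.522 in hippocampus, 1.15 ± 0.311 in amygdala and 1.46 ± 0.759 in anterior cortex. As for most beta members, its highest mean was in the cerebellum and its lowest in the amygdala. Pcdhb13 had 4.28 ± 0.149 RPKM in the cerebellum and 5.31 ± 0.839 in the hippocampus. Pcdh11x, a delta-1 protocadherin, had 0.374 ± 0.119 RPKM in cerebellum, 0.0717 ± 0.0270 in hippocampus, 0.793 ± 0.225 in amygdala and 2.003 ± 1.37 in anterior cortex (mean ± SD of 5 libraries). No test was run on these genes.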
